A study of Mus musculus with 14 samples.

Results

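The genes described are 30 of cholesterol synthesis and its regulation by SREBP2, chosen by name from the 54532 genes of the count table. They are 8 enzymes of the mevalonate and isoprenoid steps, 12 of the squalene and sterol steps, 4 genes of sterol sensing and 6 of sterol transport, storage and export. All 30 passed the filter on low counts and were among the 17874 genes tested.

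Liver RNA was sequenced from wild-type C57BL/6J mice and from mice of the genotype Abcb11-/-, whose strain is also given as C57BL/6J. Abcb11 is the canalicular pump that hepatocytes use to secrete bile salts. The 14 libraries fall into 5 groups, all at 52 weeks of age. The wild types are 2 female and 3 male livers, and the knockouts are 3 male livers and, in females, 3 samples of non-tumour tissue and 3 of tumour tissue. The labels give no treatment, do not say which part of Abcb11 was deleted, and do not say whether equal replicate numbers of tumour and non-tumour tissue mark 1 animal. The wild-type female libraries carry the numbers 2 and 3, and a number 1 was not analysed here. P-values measure the spread between these samples, and the wild-type female spread rests on 2 of them.

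Cholesterol is built from acetyl-CoA through mevalonate, isoprenoid diphosphates, squalene and lanosterol, and the liver is a main site of this synthesis and of the conversion of cholesterol to bile acids. When sterols in the endoplasmic reticulum are low, SCAP carries the transcription factor SREBP2, the product of Srebf2, to the Golgi, where it is cut and released to the nucleus. When sterols are high, INSIG proteins hold SCAP back, and the genes of the pathway, Insig1 among them, are transcribed less. In mouse liver the pathway is also known to vary with feeding and with the time of day.

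The 250 bases before the RefSeq start sites (GRCm38.p6) were searched on both strands for the motifs known from SREBP2 targets. Of the 30 genes, 24 had a RefSeq promoter entry. The sterol regulatory element, spelled TCACNCCAC, was present in 1 of the 24, Hmgcs1, and in 1.22% of 27025 genes with a promoter entry. The CCAAT box, which binds NF-Y, a factor known to act together with SREBP2, was present in 21 of the 24, in 37.5% of all genes with an entry and in 39.6% of the 12139 tested genes with an entry. The E-box form ATCACGTGA was found in 0 of the 24 and in 0.326% of all genes. These are matches of letters and not measured binding sites.

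The stretches shown are the Hmgcs1 sterol regulatory element (capitals, positions -137 to -129 from the start) and the 120 bases before the start of 4 enzymes and of Insig2, which moved the other way. The 4 are those whose knockout effect differed most between females and males among genes with a promoter entry whose stretch lies outside annotated exons. In these 5 stretches the capitals mark CCAAT boxes on either strand.
Hmgcs1, chr13:119690194-119690242, plus strand: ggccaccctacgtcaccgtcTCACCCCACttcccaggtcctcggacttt
Mvk, chr5:114444149-114444268, plus strand: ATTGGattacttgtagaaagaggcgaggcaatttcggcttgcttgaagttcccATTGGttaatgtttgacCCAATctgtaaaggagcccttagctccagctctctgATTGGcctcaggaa
Mvd, chr8:122443423-122443542, minus strand: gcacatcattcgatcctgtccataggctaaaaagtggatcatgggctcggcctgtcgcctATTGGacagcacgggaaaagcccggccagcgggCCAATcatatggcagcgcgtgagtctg
Sc5d, chr9:42264301-42264420, minus strand: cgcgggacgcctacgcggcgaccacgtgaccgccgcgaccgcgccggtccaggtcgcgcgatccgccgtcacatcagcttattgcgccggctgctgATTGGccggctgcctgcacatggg
Pmvk, chr3:89454421-89454540, plus strand: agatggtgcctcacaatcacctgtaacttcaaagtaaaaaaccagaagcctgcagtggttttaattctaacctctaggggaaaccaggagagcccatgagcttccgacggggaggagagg
Insig2, chr1:121332590-121332709, minus strand: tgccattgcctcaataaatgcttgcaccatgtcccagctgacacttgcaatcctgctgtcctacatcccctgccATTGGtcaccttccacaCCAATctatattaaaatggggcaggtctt
The Mvk stretch holds 4 CCAAT boxes, the Mvd and Insig2 stretches hold 2 each, the Sc5d stretch holds 1 and the Pmvk stretch holds 0. Pmvk has a box just beyond its stretch, at -136 to -132, and is among the 21 genes with the box. Pmvk has 2 start sites in the table. Insig2 has 3, and its stretch lies before the farthest upstream of them. So the box is found both before genes that were low in wild-type males and before Insig2, which was high there.

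Library totals were 14745140 to 19480538 counts, and levels below are CPM, counts scaled to library size with edgeR's TMM factors. Mitochondrial genes took 15.7% to 42.2% of counts, least in non-tumour 1 and 3 (19.1% and 16.7%) and knockout male 3 (15.7%). The deleted gene was low in the knockout groups: Abcb11 stood at 379 ± 154 CPM (SD, n = 2) in wild-type females, 25.0 ± 9.61 in non-tumour tissue, 25.2 ± 8.34 in tumours, 309 ± 12.3 in wild-type males and 80.7 ± 21.0 in knockout males (n = 3 each). The loss was larger in females: log2 fold changes against wild type were -3.93 ± 0.38 in non-tumour tissue and -1.94 ± 0.34 in males, which differed by -1.99 ± 0.49 (edgeR adjusted p = 0.0181). Knockout males lay above non-tumour tissue by 1.69 ± 0.33 (edgeR adjusted p = 0.0404). All 8 hepatocyte markers were detected in each group. Wild-type male 3 stood apart in other cells' genes, with a sum over 6 lymphocyte markers of 371 CPM against at most 51.9 in the other libraries, a sum over 5 proliferation markers of 155 CPM against at most 40.1, and the lowest hepatocyte marker sum (25058 CPM).

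The sterol pathway separated the groups in a pattern that ran opposite ways in the sexes. The mean log2 CPM of the 20 synthesis enzymes was 5.96 and 6.18 in wild-type females, 3.12, 2.96 and 3.10 in wild-type males, and 5.95, 5.91 and 5.77 in knockout males. Non-tumour tissue of knockout females had 4.12, 5.52 and 4.62, and the tumours had 3.96, 4.87 and 5.24. Wild-type males thus lay lowest, knockout males lay near wild-type females, and the knockout female libraries lay between and spread widely.

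Gene by gene, wild-type males lay below all 11 other libraries for 11 of the 20 enzymes and for 16 of the 30 genes, against 7.78% of all genes tested. Wild-type females lay above all 12 other libraries for 6 enzymes, Idi1, Fdps, Lss, Lbr, Hsd17b7 and Sc5d, and also for Srebf2, Insig1, Stard4 and Abca1. That makes 10 of the 30 genes, against 11.9% of all genes. Knockout males lay above all 11 other libraries for 3 enzymes, Acat2, Fdft1 and Cyp51, against 1.87% of all genes. The median coefficient of variation of an enzyme within its group was 15.2% in wild-type females and 17.8% in knockout males, against 53.9% in non-tumour tissue, 46.4% in tumours and 32.4% in wild-type males.

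**Figure D1:**
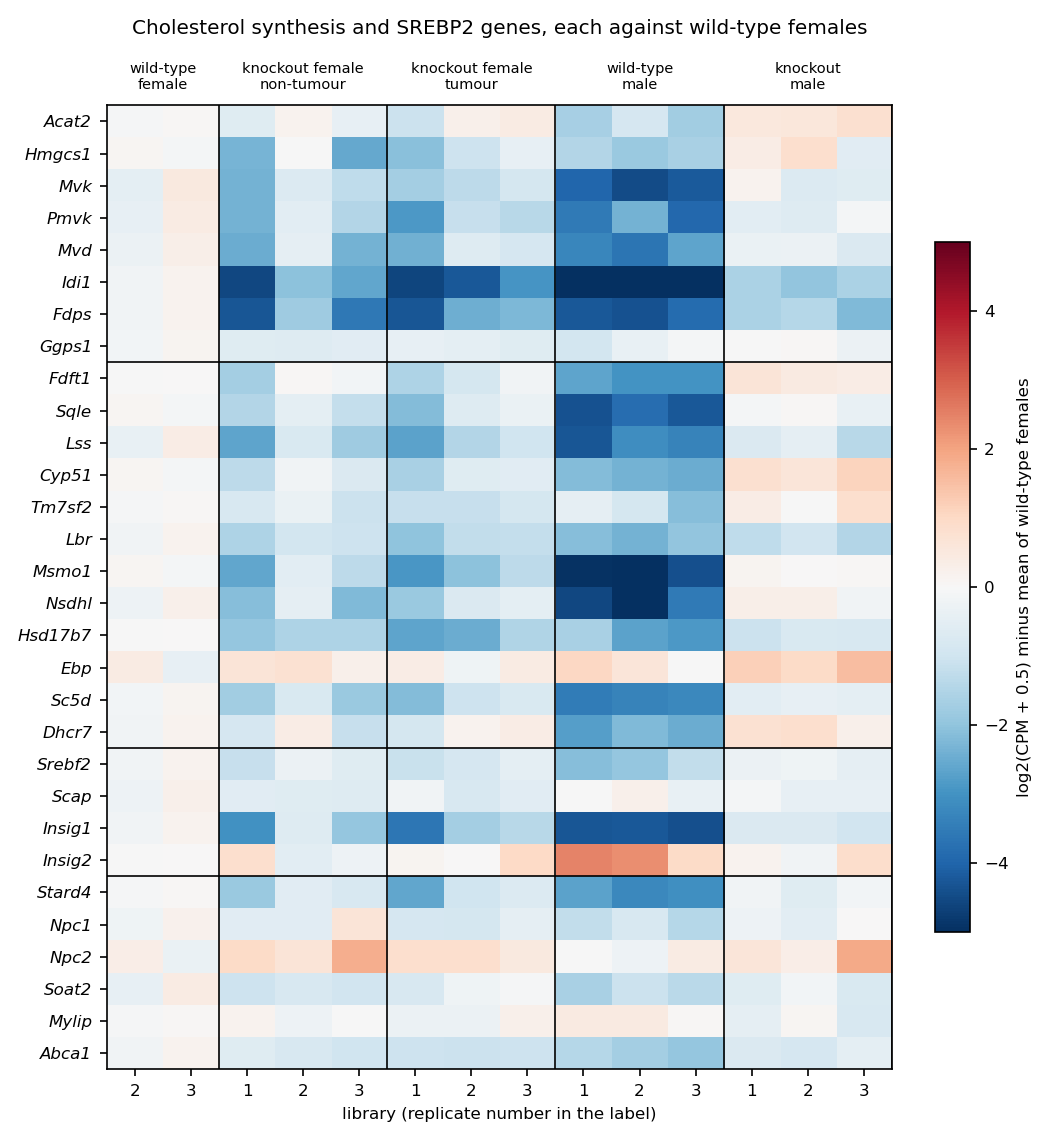
Each row is a gene and each column a library, with the replicate number under it. Colour is log2(CPM + 0.5) minus the mean of the 2 wild-type female libraries, limited to 5 either way, and horizontal lines part the mevalonate and isoprenoid steps, the squalene and sterol steps, sterol sensing, and transport, storage and export. The wild-type male columns are blue for most enzymes and red for Insig2, while the knockout male columns are near white.

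In males, knockout liver carried far more RNA of the synthesis pathway than wild-type liver. Of the 30 genes, 22 were higher in knockout males in edgeR's quasi-likelihood test (adjusted p below 0.05), where 14.3% of all genes tested were higher. Insig2 was the only gene of the 30 that was lower, where 6.32% of all genes were. The median log2 fold change was 2.37 over the 30 genes and 0.11 over all genes tested. Among the 20 enzymes, 17 rose, and the values of 18 did not overlap between the groups, which held for 23.1% of all genes in that direction.

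The mevalonate and isoprenoid enzymes opened the pathway with some of the largest differences. Idi1, which converts isopentenyl diphosphate to its isomer, stood at 0.388, 0 and 0.353 CPM in wild-type males (6, 0 and 7 counts) and at 9.07, 6.87 and 9.10 CPM in knockout males. The wild-type male libraries were at the edge of detection. The size of the fitted rise, 4.98 ± 0.88 on the log2 scale (SE, adjusted p = 0.00163 in edgeR), thus rests on these few counts. Mvk, mevalonate kinase, had 1.10, 0.644 and 0.858 CPM in wild-type males and 28.0, 15.1 and 16.1 CPM in knockout males. No value overlapped, and its log2 fold change was 4.49 ± 0.50 (edgeR adjusted p = 7.02e-05).

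Hmgcs1, which makes HMG-CoA and whose sterol regulatory element is shown above, had the highest length-scaled level of the 20 enzymes in each group. It stood at 252, 194 and 229 CPM in wild-type males and 915, 1272 and 480 CPM in knockout males, a log2 fold change of 1.98 ± 0.62 (edgeR adjusted p = 0.0351). The groups did not overlap, but the call was lost on leaving out wild-type male 1, 2 or 3, or knockout male 1 or 2. Pmvk and Mvd, the kinase and decarboxylase that follow Mvk, rose by 2.88 ± 0.60 and 2.79 ± 0.59 in log2 fold change. Fdps, farnesyl diphosphate synthase, rose by 2.80 ± 0.70, and Acat2, a cytosolic acetyl-CoA acetyltransferase, from 17.4 ± 6.81 to 69.6 ± 7.36 CPM (SD, n = 3 each). Ggps1, which diverts farnesyl diphosphate to geranylgeranyl diphosphate, was the mevalonate and isoprenoid gene that did not pass the test (log2 fold change 0.37 ± 0.23, edgeR adjusted p = 0.283).

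Of the 12 enzymes of the squalene and sterol steps, 10 rose in knockout males. Msmo1, the methylsterol monooxygenase that starts removal of the C4 methyl groups, had 5.50, 3.22 and 8.33 CPM in wild-type males and 205, 187 and 193 CPM in knockout males. The knockout male values lay in a narrow band around those of wild-type females (199 and 172 CPM), and the rise over wild-type males, 5.09 ± 0.56 on the log2 scale, was the largest of the 30 genes (34.1-fold, edgeR adjusted p = 7.84e-05). Nsdhl, which acts next in the same removal, had 3.11, 1.43 and 6.76 CPM in wild-type males and 102, 102 and 74.5 CPM in knockout males. Its groups lay far apart, with a log2 fold change of 4.60 ± 0.64 (edgeR adjusted p = 0.000546). Hsd17b7, the reductase that completes this step, rose less, by 1.42 ± 0.34 in log2 fold change, from 14.2 ± 7.34 to 38.1 ± 4.10 CPM (SD, n = 3 each).

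Sqle, squalene monooxygenase, a rate-controlling enzyme of the pathway, had 2.65, 4.08 and 2.98 CPM in wild-type males and 60.6, 66.9 and 49.6 CPM in knockout males (log2 fold change 4.19 ± 0.43, edgeR adjusted p = 4.46e-05). Again no knockout value came near a wild-type value. Fdft1, squalene synthase, rose by 3.39 ± 0.42, Lss, which closes the sterol rings, by 2.74 ± 0.54, and Cyp51, the lanosterol demethylase, by 3.23 ± 0.33. The late enzymes Sc5d and Dhcr7, which act on the sterol B ring, rose by 2.89 ± 0.36 and 3.17 ± 0.41. Tm7sf2 and Lbr both encode sterol C14 reductases, and Tm7sf2 rose by 1.45 ± 0.35. Lbr, also a nuclear membrane protein, narrowly missed the threshold (1.03 ± 0.35, edgeR adjusted p = 0.0503). Its knockout male values all lay above the wild-type male values, and DESeq2 called it. Ebp, the sterol isomerase, had 140, 103 and 66.9 CPM in wild-type males and 157, 130 and 197 CPM in knockout males, which overlap (0.64 ± 0.31, edgeR adjusted p = 0.156). Ebp was also the only 1 of the 20 enzymes whose mean was above that of wild-type females in each of the other groups.

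**Figure D2:**
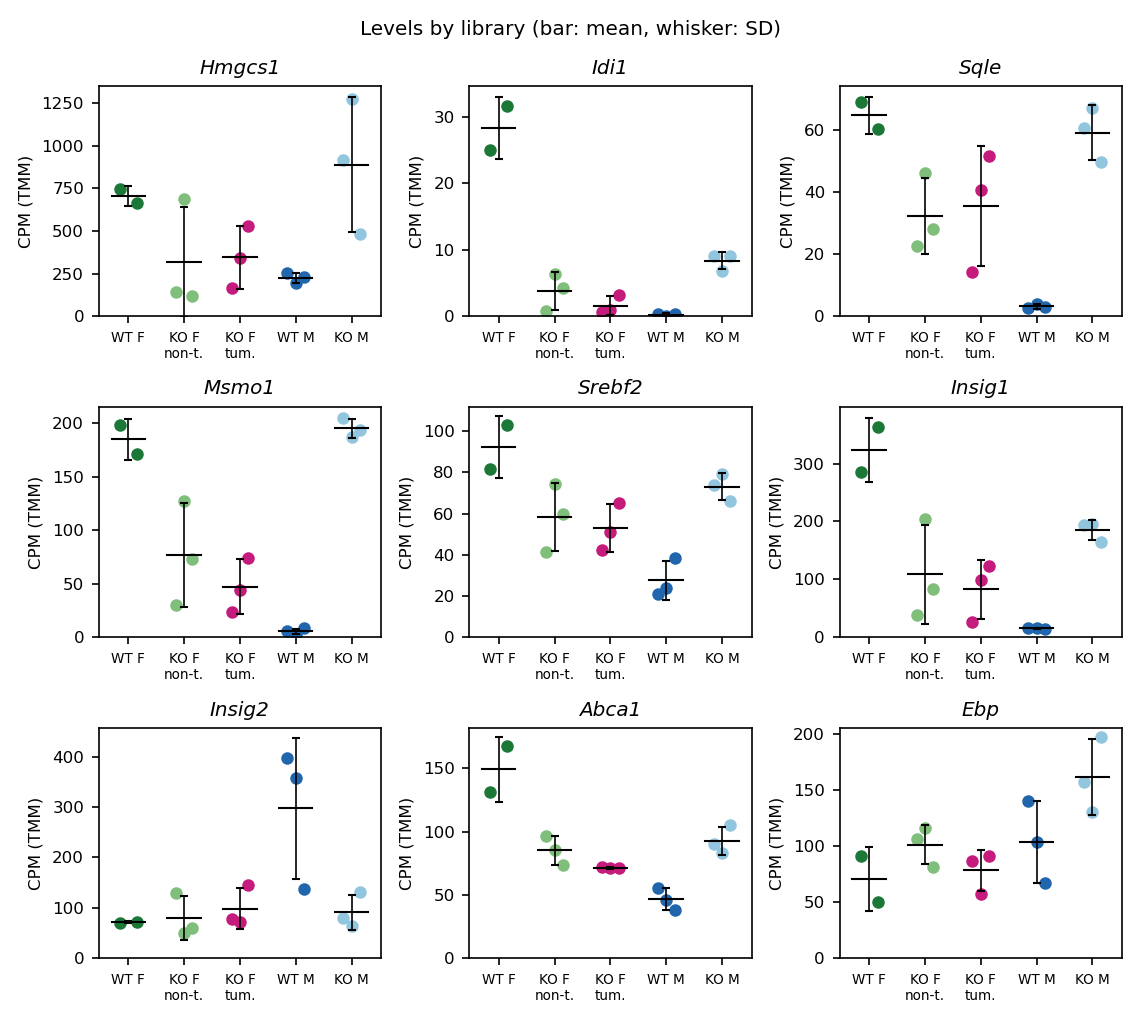
Dots are libraries and the vertical axes are linear CPM starting at 0; the horizontal bar is the group mean and the whisker the SD (n = 2 for wild-type females, 3 for the others), cut at 0. WT and KO are wild type and knockout, F and M are the sexes, and non-t. and tum. are non-tumour and tumour tissue. Msmo1, Sqle and Insig1 lie near 0 in wild-type males, Insig2 is highest there, and Ebp overlaps between the male groups.

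The sterol sensors were divided. Srebf2, which encodes SREBP2 itself, had 20.8, 23.7 and 38.6 CPM in wild-type males and 73.9, 79.1 and 66.2 CPM in knockout males, a rise of 1.40 ± 0.27 on the log2 scale (edgeR adjusted p = 0.00292). Insig1 had 14.6 to 16.5 CPM in the 3 wild-type males and 195, 195 and 165 CPM in knockout males, a rise of 3.56 ± 0.59 (edgeR adjusted p = 0.00127). Both were thus lowest in wild-type males, without overlap. Scap, the SREBP escort, did not pass the test (-0.27 ± 0.23, edgeR adjusted p = 0.434).

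Insig2, the second retention protein, ran the other way. It had 397, 357 and 138 CPM in wild-type males and 80.4, 63.5 and 131 CPM in knockout males. It fell, with a log2 fold change of -1.70 ± 0.45 (edgeR adjusted p = 0.0156). The groups did not overlap, as 12.2% of all genes in that direction, though wild-type male 3 stood close to knockout male 3, and the call was lost without knockout male 1 or 2. Per kilobase of gene length, the ratio of Insig1 to Insig2 RNA was 0.0453, 0.0518 and 0.119 in wild-type males against 2.72, 3.45 and 1.42 in knockout males. Wild-type females had 4.57 and 5.59, non-tumour tissue had 0.340, 4.63 and 1.57, and tumours had 0.368, 1.53 and 0.952. Insig2 was therefore the more abundant of the pair per length in every wild-type male, and Insig1 in every wild-type female and knockout male.

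Of the 6 genes of transport, storage and export, 3 rose in knockout males. Stard4, a sterol carrier protein of the cytosol, had 9.70, 6.44 and 7.27 CPM in wild-type males and 56.8, 41.8 and 58.8 CPM in knockout males (log2 fold change 2.75 ± 0.43, edgeR adjusted p = 0.000845). Abca1, the exporter of cholesterol to apolipoprotein A-I and a known LXR target, had 55.6, 45.9 and 38.2 CPM in wild-type males and 90.3, 83.0 and 105 CPM in knockout males, a 1.99-fold rise (edgeR adjusted p = 0.0042). Neither gene overlapped between the male groups. Soat2, which esterifies cholesterol for storage, rose by 0.86 ± 0.27 (edgeR adjusted p = 0.0353), a call kept under 3 of 14 alternative settings. Npc1 and Npc2, which pass cholesterol out of lysosomes, and Mylip, a ligase that marks lipoprotein receptors for degradation, did not pass (0.89 ± 0.32, 1.04 ± 0.39 and -0.73 ± 0.29, edgeR adjusted p = 0.0594, 0.0743 and 0.0925).

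**Figure D3:**
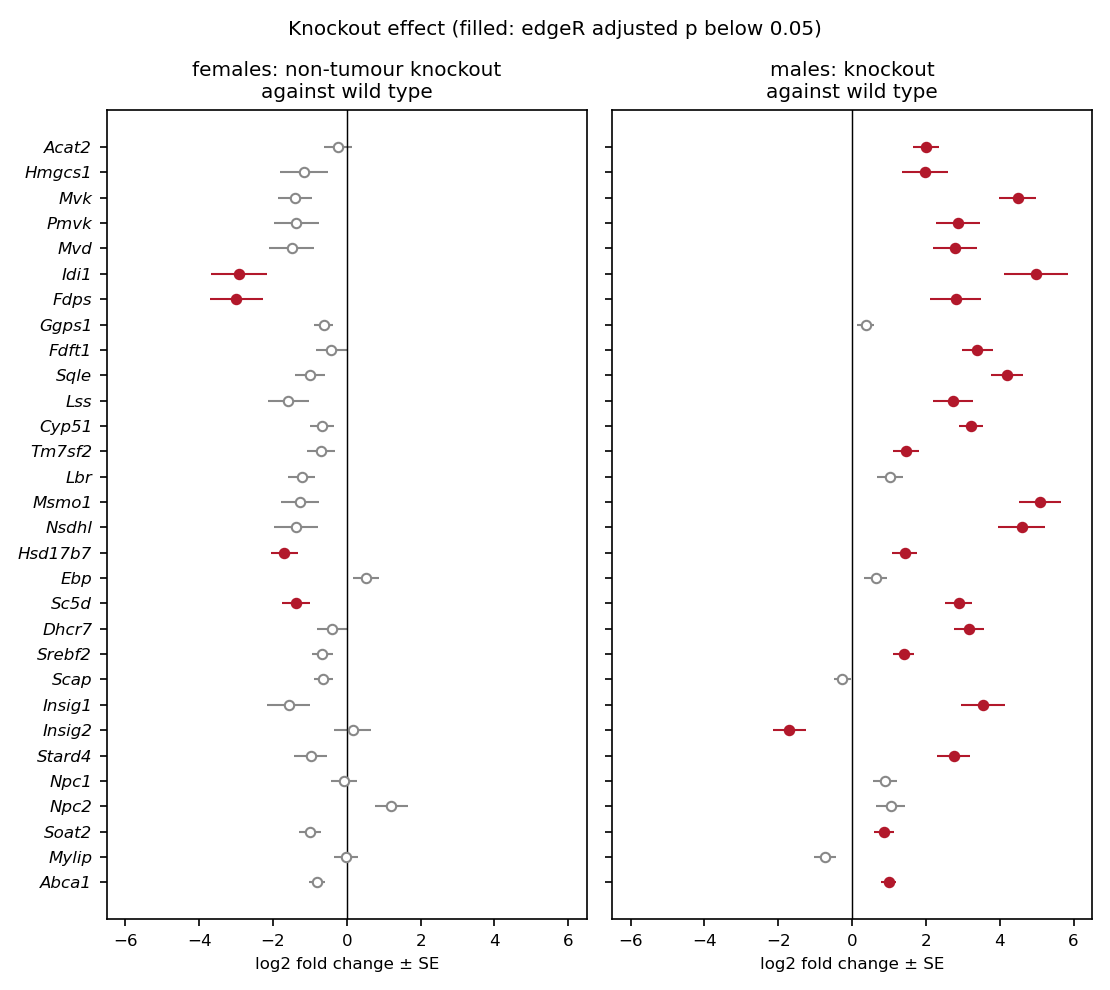
Points are log2 fold changes of knockout against wild type with their SE from edgeR, females (non-tumour tissue) left and males right, and filled points passed an adjusted p of 0.05. In males 22 genes lie right of 0 and pass; in females 27 lie left of 0 and 4 of them pass.

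Genes of the daily clock moved with the male groups. A clock score, the mean log2 CPM of Per1, Per2, Per3, Nr1d1, Nr1d2, Dbp, Tef and Ciart minus that of Arntl, Npas2, Clock and Nfil3, was -1.85, -1.42 and -1.52 in wild-type males and 3.46, 2.70 and 3.15 in knockout males. The female groups overlapped, with 1.73 and 1.27 in wild type, -0.29, 3.12 and 4.86 in non-tumour tissue and 0.04, 2.61 and 4.26 in tumours. The labels give no hour of collection and no feeding state, so a clock phase that differs between the male groups and the knockout cannot be told apart by design. The male scores did not overlap, so a fit with the score as a covariate takes its slope from differences within groups. These were widest in knockout females, so the fit cannot tell which male calls depend on the clock. With the score as a covariate, 7 of the 30 genes rose in males, all 7 among the 22: Mvk, Fdft1, Sqle, Cyp51, Msmo1, Sc5d and Dhcr7. In that fit 1.87% of all genes tested rose, in place of 14.3%, so calls were lost across the whole table and not only among the 30. The median log2 fold change of the 30 genes was then 1.22 in place of 2.37, and Msmo1 and Sqle had 3.45 and 3.07 (edgeR adjusted p = 0.00746 and 0.00709). Among the genes whose call was lost, Insig1 had 1.63, Srebf2 0.79, Fdps 0.79 and Hmgcs1 0.73 (edgeR adjusted p = 0.254, 0.357, 0.804 and 0.812).

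**Figure D4:**
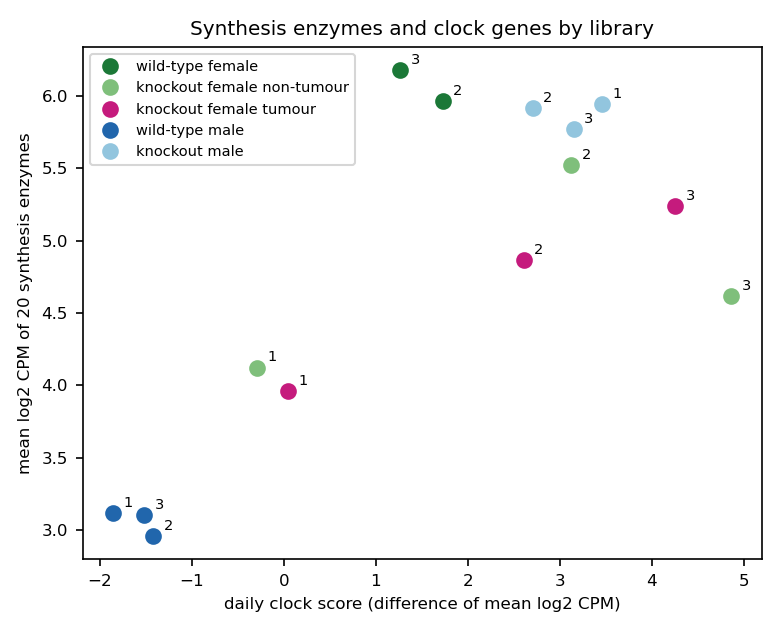
Each point is a library, with its replicate number, placed by its clock score (difference of mean log2 CPM, horizontal) and by the mean log2 CPM of the 20 synthesis enzymes (vertical). Wild-type males sit at the lower left with scores below -1, knockout males at the upper right, and non-tumour 3 has the highest score (4.86) but an enzyme mean of only 4.62.

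Other cells' genes were also compared between the male groups. The 6 lymphocyte markers summed to 3.86 to 371 CPM in wild-type males and 9.27 to 46.3 CPM in knockout males. Without wild-type male 3 the count of the 30 genes past the threshold was 22 in place of 23. Over all genes it was 4055 of 17604 in place of 3688 of 17874. The 6 adipocyte markers summed to 187 to 256 CPM in wild-type males and 72.1 to 144 CPM in knockout males, of which Plin4 alone gave 181 to 241 and 65.1 to 115 CPM, while Adipoq and Lep were at 0 in both groups. The 7 endothelial markers summed to 128 to 208 CPM in wild-type males and 84.9 to 108 CPM in knockout males. The part of adipocytes and endothelial cells in the male result was not tested. In bulk liver, fewer cells of a type and less RNA per cell cannot be told apart. Some of the rising genes overlap another gene. Fdft1 overlaps Ctsb and Cyp51 overlaps Akap9 on the opposite strand, and whether counting used strand is not stated. Tm7sf2 overlaps Vps51 on the same strand, so strand could not part their reads. Fdps has a processed pseudogene in the table, and how reads matching both were counted is not stated, so its level is uncertain.

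In females the knockout went with lower levels. In non-tumour tissue against wild-type females, 4 of the 30 genes fell, all synthesis enzymes, where 2.26% of all genes tested fell, and 0 rose, where 1.9% did. These were Fdps (-2.99 ± 0.71 in log2 fold change, edgeR adjusted p = 0.0346), Idi1 (-2.91 ± 0.76, 0.0468), Hsd17b7 (-1.69 ± 0.37, 0.0245) and Sc5d (-1.37 ± 0.37, 0.0496). Fold changes were below 0 for 27 of the 30, with a median of -0.98 against 0.00 over all genes, and 20 of the 30 had an unadjusted p below 0.05, as did 21.2% of all genes. The values of 21 genes lay wholly below those of wild-type females, which held for 26.5% of all genes tested.

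Idi1 had 25.0 and 31.6 CPM in wild-type females and 0.735, 6.35 and 4.21 CPM in non-tumour tissue, so that even the highest non-tumour value lay well under the lower wild-type value. Fdps had 26.9 and 34.6 CPM against 1.10, 8.43 and 2.13 CPM, again with non-tumour 2 highest. Hsd17b7 had 69.3 and 71.3 CPM against 17.9, 23.7 and 23.8 CPM, the tightest groups of the 4. Sc5d, the lathosterol desaturase, had 304 and 366 CPM against 99.9, 195 and 92.8 CPM. These calls rest on few libraries: 0 of the 30 genes passed without non-tumour 1 or non-tumour 3, and 10 passed without non-tumour 2. Over all genes, 198 of 17778, 146 of 17698 and 921 of 17864 passed in these fits, against 743 of 17874 with all libraries. Without non-tumour 1 or 3, calls were thus lost across the whole table. The calls were also lost on leaving out either wild-type female, a fit with 1 library in that group. Mitochondrial genes took 19.1% and 16.7% of counts in non-tumour 1 and 3. They took 34.2% in non-tumour 2, and 34.6% and 33.3% in wild-type females. The part of this difference in the female comparison was not tested.

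Other genes of the pathway had lower means in non-tumour tissue without passing the test. Insig1 had 285 and 363 CPM in wild-type females and 39.3, 204 and 83.6 CPM in non-tumour tissue (-1.57 ± 0.59, edgeR adjusted p = 0.142). Msmo1 had 199 and 172 CPM against 29.8, 128 and 73.6 CPM (-1.27 ± 0.52, adjusted p = 0.175), and Hmgcs1 had 747 and 664 CPM against 140, 690 and 120 CPM (-1.16 ± 0.65, adjusted p = 0.335). In each of these 3 genes non-tumour 2 was the highest non-tumour library, and for Hmgcs1 it lay between the wild-type values. Srebf2 had 81.6 and 103 CPM against 41.2, 74.4 and 59.6 CPM (-0.66 ± 0.30, adjusted p = 0.216). Abca1 came near the threshold (-0.81 ± 0.23, adjusted p = 0.0571), and Npc2 was the only gene of the 30 whose non-tumour values all lay above wild type (1.21 ± 0.45, adjusted p = 0.139), as 23.2% of all genes did.

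Markers of other cells moved with this comparison. The 7 cholangiocyte markers summed to 133 to 277 CPM in wild-type females and 419 to 559 CPM in non-tumour tissue, and the 7 macrophage and Kupffer cell markers summed to 112 to 114 and 184 to 469 CPM. The 7 stellate cell and fibroblast markers summed to 146 to 219 and 240 to 310 CPM. The 8 hepatocyte markers summed to 44582 to 46308 CPM and 46510 to 85358 CPM. The part of these cells in the lower sterol genes was not tested. With the clock score as a covariate, 10 of the 30 genes fell, the 4 above and Mvk, Lss, Lbr, Msmo1, Insig1 and Stard4, and 2.25% of all genes tested fell in that fit.

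No gene of the pathway passed the test between tumours and non-tumour tissue of knockout females. In edgeR, 0 of the 30 genes passed, as did 0% of all genes tested, and 1 of the 30, Soat2, had an unadjusted p below 0.05 (6.81% of all genes), with DESeq2 also calling 0 of the 30. The median log2 fold change was -0.10 over the 30 genes. The 30 genes did not move together: Idi1 had -1.20 ± 0.71, Npc1 -0.67 ± 0.32, Soat2 0.60 ± 0.27 and Nsdhl 0.44 ± 0.55 (edgeR adjusted p = 0.834, 0.737, 0.731 and 0.961). Abca1 was the only gene whose groups did not overlap, at 72.3, 71.1 and 71.3 CPM in tumours and 96.5, 85.7 and 73.5 CPM in non-tumour tissue, and 7.64% of all genes lay lower without overlap.

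The knockout female libraries differed more among themselves than by tissue in the enzyme means given above. Non-tumour 2 was the highest non-tumour library for 18 of the 20 enzymes and non-tumour 1 the lowest for 13. Tumour 3 was the highest tumour library for 17 enzymes and tumour 1 the lowest for 18. Number 1 was thus low in both tissues, and its clock scores (-0.29 and 0.04) were the lowest of the knockout females. Taking tumour minus non-tumour within a number, 7 of 20 enzymes were above 0 for number 1 (median -0.19 on the log2 scale), 2 for number 2 (median -0.64) and 16 for number 3 (median 0.31), so the direction differed between numbers.

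**Figure D5:**
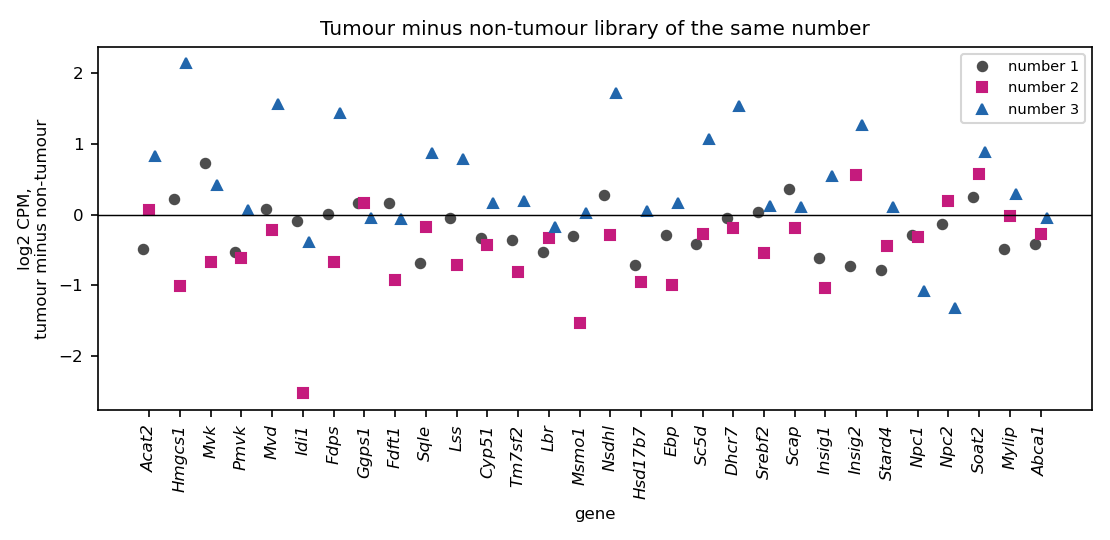
The vertical axis is the difference in log2 CPM between the tumour and the non-tumour library of the same number, for each of the 30 genes. Number 3 lies above 0 for 23 genes, number 2 for 5 and number 1 for 10.

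Tumours were also set against wild-type females, a comparison that shares the wild-type libraries with that of non-tumour tissue. Here 7 of the 30 genes fell and 0 rose, where 5.67% and 3.94% of all genes did. These were Idi1 (-4.11 ± 0.80 in log2 fold change, edgeR adjusted p = 0.00758), Fdps (-2.89 ± 0.71, 0.0229), Hsd17b7 (-2.14 ± 0.37, 0.00364), Msmo1 (-1.96 ± 0.52, 0.0316), Lbr (-1.55 ± 0.38, 0.0203), Sc5d (-1.22 ± 0.37, 0.0499) and Abca1 (-1.06 ± 0.23, 0.0109). Idi1 had 0.680 CPM in tumour 1 and 3.19 CPM in tumour 3, with tumour 2 between them, against 25.0 and 31.6 CPM in wild-type females. The values of 22 of the 30 genes lay wholly below wild type and those of 2 wholly above, as did 27.6% and 24.8% of all genes. Lbr had 2.91, 5.40 and 5.53 CPM against 11.7 and 15.3 CPM in wild-type females, with no overlap. Dhcr7 and Acat2, by contrast, had fold changes of -0.02 ± 0.42 and 0.00 ± 0.39 (adjusted p = 0.983 and 0.999). The count of 7 became 4 without tumour 1 or tumour 2, where 1378 of 17793 and 799 of 17692 tested genes passed. With all libraries 1718 of 17874 did. The count also fell on leaving out either wild-type female, a fit with 1 library in that group. In tumours the 7 cholangiocyte markers summed to 660 to 1350 CPM, the 7 macrophage and Kupffer cell markers to 195 to 374 CPM, and the 7 endothelial markers to 131 to 174 CPM against 103 to 115 CPM in wild-type females. The 7 stellate cell and fibroblast markers summed to 238 to 528 CPM in tumours and 146 to 219 CPM in wild-type females. The 6 adipocyte markers summed to 136 to 341 against 57.6 to 84.9 CPM, of which Plin4 alone gave 136 to 338 and 57.6 to 84.9 CPM. The 5 proliferation markers summed to 18.9 to 40.1 CPM in tumours and 8.53 to 11.8 CPM in wild-type females. Their part in these differences was not tested.

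The knockout effect was tested directly between the sexes, as the female difference (non-tumour against wild type) minus the male difference. Male knockout libraries are not divided into tumour and non-tumour tissue, so sex and tissue sampling cannot be told apart here. For 23 of the 30 genes the effect was lower in females, where 8.68% of all genes tested were lower, and for 0 it was higher, where 2.2% were. The median difference was -3.35 on the log2 scale over the 30 genes and -0.07 over all genes, and it was -4.07 over the 20 enzymes, of which 18 passed. Idi1 differed by -7.89 ± 1.16 (edgeR adjusted p = 0.00137), Msmo1 by -6.36 ± 0.74 (0.000433), Nsdhl by -5.97 ± 0.86 (0.00154) and Mvk by -5.89 ± 0.67 (0.000265). Among the sensors, Insig1 differed by -5.13 ± 0.82 (0.00232) and Srebf2 by -2.06 ± 0.40 (0.00572), while Insig2 had the opposite sign and did not pass (1.86 ± 0.67, 0.0872). Scap, Ebp, Ggps1, Npc1, Npc2 and Mylip did not pass either. With the clock score as a covariate 15 of the 23 remained, where 2.66% of all genes were lower in that fit, with a median over the 30 genes of -2.61.

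That difference contains the sex difference of the wild types, a comparison that shares its libraries with the knockout comparisons. Against wild-type females, 22 of the 30 genes were lower in wild-type males and Insig2 was higher, where 16.1% and 7.03% of all genes were. The median log2 fold change was -2.35 over the 30 genes and -0.12 over all genes. The lower genes included Idi1 (-6.74 ± 0.94, edgeR adjusted p = 0.000341), Msmo1 (-5.02 ± 0.58, 9.66e-05), Mvk (-4.90 ± 0.52, 5.17e-05), Sqle (-4.32 ± 0.45, 4.65e-05) and Insig1 (-4.37 ± 0.64, 0.000531). The values of 24 genes lay wholly below those of wild-type females, those of Insig2 and Mylip lay wholly above, and 31.5% and 17.5% of all genes did so. Insig2 had 70.0 and 72.9 CPM in wild-type females, and its log2 fold change was 2.06 ± 0.53 (0.0131). Npc1 was lower in wild-type males (-1.15 ± 0.35, 0.0278), but Hmgcs1 did not pass (-1.65 ± 0.66, 0.0851). The clock scores of the wild types did not overlap between the sexes, and with the score as a covariate 19 of these 23 genes passed, all lower, with Insig2 not among them, where 7.46% of all genes were lower. The 6 adipocyte markers summed to 57.6 to 84.9 CPM in wild-type females, below the wild-type males. Plin4 gave nearly all of both sums (57.6 to 84.9 and 181 to 241 CPM). Cfd was at 0 in wild-type females and 4.27 to 14.5 CPM in wild-type males. The macrophage and endothelial sums were also lower in wild-type females and the cholangiocyte sum higher (57.4 to 83.7 CPM in wild-type males), and the part of such cells was not tested.

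Fewer genes passed between the sexes within the knockouts. Against non-tumour tissue of females, 1 of the 30 genes was higher in knockout males, where 0.207% of all genes were, and 0 were lower, where 0.185% were. This was Cyp51, with 124, 106 and 153 CPM in knockout males and 28.4, 61.4 and 42.6 CPM in non-tumour tissue (1.53 ± 0.31, edgeR adjusted p = 0.0424), a call that was lost without non-tumour 1, non-tumour 3, knockout male 1 or knockout male 3. Of the 20 enzymes, 19 had a fold change above 0 (median 0.96), and 12 had knockout male values wholly above non-tumour values, as did 9.26% of all genes.

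Across the 14 libraries, each gene was set beside the mean log2 CPM of the other synthesis enzymes after removing the group means, which leaves the variation between libraries of a group. The points share their libraries and depth, and the correlations are descriptions. Insig1 followed the enzymes most closely (r = 0.98), then Fdps (0.97), Sc5d (0.91), Mvd (0.89) and Stard4 (0.87), and Srebf2 had 0.72. Genes that did not follow them were Npc2 (-0.32), Scap (-0.30), Insig2 (-0.22), Ggps1 (-0.13), Abca1 (-0.10), Ebp (-0.08), Npc1 (0.00), Mylip (0.03) and Tm7sf2 (0.18). The enzyme mean varied within groups mainly in knockout females, from 4.12 to 5.52 in non-tumour tissue and 3.96 to 5.24 in tumours. It spanned 5.96 to 6.18 in wild-type females, 2.96 to 3.12 in wild-type males and 5.77 to 5.95 in knockout males. The correlations thus mostly describe the knockout female libraries, in which number 1 was low in both tissues. In these correlations Insig1 went with the enzymes and Insig2 did not.

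Per kilobase of gene length, Hmgcs1 was the most abundant of the 30 genes in all groups other than wild-type males, at 154 CPM per kilobase in wild-type females and 193 in knockout males. In wild-type males Insig2 was the most abundant (85.6), followed by Hmgcs1 and then Ebp (44.9). Idi1, Fdps and Mvk were lowest there, at 0.070, 0.303 and 0.324 CPM per kilobase. The length-scaled order of the genes thus differed between wild-type males and the other groups.

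Genes next to the pathway were read from lists not used to choose the 30. In knockout against wild-type males, where 14.3% of all genes rose and 6.32% fell, 2 of 9 genes of SREBP processing and degradation rose, Erlin1 (1.44 ± 0.21 in log2 fold change) and Erlin2 (0.74 ± 0.21), which encode membrane proteins of sterol-dependent degradation. Of 12 genes of the isoprenoid branches, 2 rose, Coq2 of ubiquinone synthesis (0.96 ± 0.27) and Nus1 of dolichol synthesis (0.59 ± 0.18), and 2 fell, Rce1, which processes prenylated proteins (-0.95 ± 0.21), and Rabggta (-0.99 ± 0.27). Of 15 tested genes of LXR and other sterol transport, 5 rose, led by Scarb1, the HDL receptor (2.21 ± 0.39), Tmem97 (2.04 ± 0.42) and Stard5 (1.19 ± 0.26). The 3 that fell were Nceh1, a cholesteryl ester hydrolase (-1.27 ± 0.32), Gramd1a (-0.90 ± 0.27) and Nr1h3, which encodes LXR alpha (-0.73 ± 0.22). Nus1 and these 3 were named after their values were seen.

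Of the 15 lipogenic genes linked to SREBP1c, 6 rose in knockout males and 0 fell, where 14.3% and 6.32% of all genes did, with a median of 1.80. Srebf1, which encodes SREBP1, had 15.2, 19.7 and 20.1 CPM in wild-type males and 180, 167 and 75.9 CPM in knockout males (2.94 ± 0.57, edgeR adjusted p = 0.00333). Acss2, which makes acetyl-CoA from acetate, rose by 2.80 ± 0.42 and Fads1, a fatty acid desaturase, by 2.23 ± 0.37. The knockout effect was lower in females for 6 of the 15, where it was for 8.68% of all genes, among them Srebf1 (-4.04 ± 0.81, adjusted p = 0.0077). In the female comparisons 0 genes of the 4 lists passed in edgeR. In non-tumour tissue against wild type, 1, 1, 3 and 2 genes of the lists, in the order given here, had an unadjusted p below 0.05, as did 21.2% of all genes. In tumours against non-tumour tissue the lipogenic median was 1.23, with 7 of 15 at an unadjusted p below 0.05, as were 6.81% of all genes. The mean log2 CPM of the list was 5.54, 8.05 and 7.05 in the tumours and 5.82, 6.79 and 5.50 in non-tumour tissue. Tumour 2 was thus the highest, the groups overlapped in this mean, and 0 of the 15 genes lay apart without overlap.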

How the data were processed

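Total RNA of 14 mouse liver libraries was sequenced in pairs of reads of 125 or 150 bases, per the labels; which library had which length is not given. Reads were aligned to GRCm38 with HISAT2 2.0.5 and counted with featureCounts 1.5.0-p3, per the submitters' processing notes; the strand setting is not given in the sources used here. The deposited table holds whole counts per gene, which were tested, and FPKM values by the authors, which were only compared with the counts: they equal counts over length, scaled to a total of 87.2% to 128% of the count sum. The authors' deposited gene length was used for levels per kilobase.

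In edgeR 4.0.16 (R 4.3.3), TMM scaling, filterByExpr on the 5 groups (17874 of 54532 genes) and a robust quasi-likelihood F test were run in 1 fit of all 14 libraries, with Benjamini-Hochberg adjustment over all genes tested and a threshold of 0.05. The common biological coefficient of variation was 0.442. Standard errors were derived from the fold change and its F value. Log2 CPM used a prior count of 2. Library totals are given with the results; Idi1 in wild-type males, at 0 to 7 counts, shows the limit of depth. The procedure was tested on data drawn with known changes. The alternatives tried were other scaling (RLE, upper quartile), omitting the filter, a filter of 1 CPM in 3 libraries, DESeq2 1.42.0, fits of the compared groups alone, a replicate block, the clock score as a covariate and each library left out.

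Deviations of same-numbered tumour and non-tumour libraries correlated at 0.483, 0.405 and 0.312 over 8937 genes, which meets the criterion set for pairs, from the data and not from the labels. Different-numbered tumour and non-tumour libraries ranged from -0.415 to 0.046. Libraries of opposite sex, which cannot be from 1 animal, ranged from -0.553 to 0.430, the latter for non-tumour 3 with knockout male 3. That value is below the 0.483 of number 1 and above those of numbers 2 and 3. Non-tumour 2 with knockout male 1 had 0.388. These correlations therefore do not identify animals. The tests reported carry no block: the shared numbers enter only the replicate block alternative and the differences within a number. All 30 genes are named, by a rule that took them with their classes from a given list; of the other lists up to 3 called genes per comparison were named. Genes and lists were chosen with earlier results of these data known. Some genes of the pathway are not reported here.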

Additional observations from a re-analysis of the deposited data

Results flagged for a closer look

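The knockout effect differed between females and males for 23 of the 30 genes, by edgeR's test of the difference itself. Values are the female log2 fold change (non-tumour against wild type) minus the male one, each past an adjusted p of 0.05. The male knockout libraries are not divided into tumour and non-tumour tissue. In the mevalonate and isoprenoid steps the differences were -2.24 for Acat2, -3.14 for Hmgcs1, -5.89 for Mvk, -4.24 for Pmvk, -4.29 for Mvd, -7.89 for Idi1 and -5.80 for Fdps. In the squalene and sterol steps they were -3.81 for Fdft1, -5.19 for Sqle, -4.33 for Lss, -3.90 for Cyp51, -2.15 for Tm7sf2, -2.26 for Lbr, -6.36 for Msmo1, -5.97 for Nsdhl, -3.11 for Hsd17b7, -4.26 for Sc5d and -3.56 for Dhcr7. Among sensing, transport and storage genes they were -2.06 for Srebf2, -5.13 for Insig1, -3.72 for Stard4, -1.85 for Soat2 and -1.80 for Abca1. Groups of 2 or 3 libraries were not searched for single values far from the rest.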

How the results depend on the processing

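Counts are of the 30 genes past the threshold, with the number of all genes tested that passed in brackets. Non-tumour tissue against wild-type females had 4 (743 of 17874). The count was 14 (1739 of 28842) with no low-count filter, 9 (1885 of 14734) with DESeq2 and 2 (1061 of 16373) with the compared groups alone. It was 2 (480 of 17874) with the replicate block over all libraries and 10 (682 of 17874) with the clock score. Without both number 1 libraries of knockout females it was 1 (235 of 17654), and with 1 non-tumour library left out 0 to 10 (146 to 921). Tumours against wild-type females had 7 (1718 of 17874). There it was 15 (2516 of 28842) with no filter, 11 (3033 of 16377) with DESeq2 and 16 (1812 of 17874) with the clock score. With 1 tumour library left out it was 4 to 7 (799 to 1378). Males had 23 (3688 of 17874), with 7 (372 of 17874) under the clock score and 20 to 23 (2462 to 4055) with 1 library left out. The difference between the sexes had 23 (1945 of 17874), with 15 (548 of 17874) under the clock score. With 1 library other than a wild-type female left out it was 19 to 24 (884 to 2604). It also fell on leaving out either wild-type female, a fit with 1 library in that group. Wild-type males against wild-type females had 23 (4137 of 17874). There it ranged from 19 (1822 of 17874) with the clock score to 25 (4634 of 28842) with no filter. Knockout males against non-tumour tissue had 1 (70 of 17874). There it was 7 (700 of 28842) with no filter, 0 (115 of 15178) with the compared groups alone and 0 (63 of 17874) with upper-quartile scaling. Without both number 1 libraries it was 0 (49 of 17654), and with 1 library left out 0 to 2 (19 to 143). The causes were not tested. Upper-quartile scaling and leaving out both number 1 libraries were chosen after seeing the data.

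For tumours against non-tumour tissue all alternatives gave 0 of the 30, where 0 to 338 of all genes passed. That includes the replicate block for knockout females, under which 2 genes of the whole table passed. The block over all libraries also lost Sc5d in tumours against wild-type females (6 in place of 7) and changed no call among the 30 genes in males, in the difference between the sexes or in the wild types. Same-numbered wild-type and knockout males did not correlate (-0.02, -0.21 and -0.29), so a block there rests on shared numbers only. No call changed direction under any alternative. With 1 wild-type female left out, the lone library is assumed to vary like the other groups.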
